A study of Mus musculus with 21 samples.

Results

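The 39 genes described here are a list of type I interferon response genes. The name of the list does not tell which signal moves its genes, and this was not tested. All 39 gene symbols on the list matched an Ensembl gene among the 55401 genes of a forebrain RNA-seq count table. Members and the other gene lists used below were taken by gene name, with earlier results of these data known. Shares of listed genes set beside shares of all genes are therefore descriptions, not support from an independent list. Forebrain RNA of 21 mice in 6 groups was compared. E2H, E3H and E4H mice (3 of each) carried human APOE2, APOE3 or APOE4 in place of mouse Apoe on both chromosomes and were 9 to 10 months old. PS/E2H mice, PS/E3H mice and PS/E4H mice (4 of each) carried the same homozygous APOE alleles and, in addition, 1 copy of the human P301S tau transgene of the PS19 line, and were killed once their hindlimbs were paralyzed. The 3 groups without the transgene are called parental and the others PS19. Mouse Apoe is absent by design from all 6 groups, and mice with mouse Apoe were not analysed here. The PS19 transgene runs from the mouse prion promoter, whose activity is not limited to one cell type. The PS19 line had been kept on a mixed B6/C3H background and the APOE lines on C57BL6, so that transgenic and parental mice can also differ in background, and the E4H, PS/E2H and PS/E4H groups held both sexes, with no sex given for single mice. Tau genotype, paralysis and age at death therefore cannot be told apart in any comparison of PS19 with parental mice.

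Type I interferons are cytokines that almost every cell can make when its sensors meet viral or misplaced nucleic acid. They bind a receptor of the subunits IFNAR1 and IFNAR2, the kinases JAK1 and TYK2 are activated, and the complex ISGF3, of which STAT2 and IRF9 are parts, binds the interferon-stimulated response element (ISRE) before its target genes. The targets include the sensors and transcription factors themselves, the ubiquitin-like protein ISG15, the RNA-binding IFIT and OAS families and a range of antiviral effectors. In brain the response is known best from microglia and vascular cells, and sets of these genes are often used to name an interferon-responsive state of microglia. The 39 members were grouped by role into 4 RNA sensors and regulators, 3 transcription factors, ISG15 and its protease, 4 IFIT genes, 5 OAS genes, 7 other antiviral effectors, 5 nuclear and transcriptional regulators and 9 other induced genes.

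Upstream sequences of 5 members with matches to the ISRE core are shown here, picked by hand as examples, and all 5 were called in at least 1 comparison of PS19 with parental mice and held at least 2 matches between 200 and 41 bases before the gene start. The core of the ISRE, GAAANNGAAA read on either strand (TTTCNNTTTC on the other), was searched in the 250 bases before the gene start in RefSeq promoters (GRCm38.p6), where overlapping matches were each counted. Of the 39 members 30 had a RefSeq promoter, and 12 of these 30 (40%) held the core, while 936 of 27025 genes in the whole promoter table (3.46%) did. The 12 were Bst2, Ifit1, Ifit3, Ifit3b, Isg15, Oas1a, Oas3, Rsad2, Slfn5, Slfn8, Stat2 and Trim30a, of which Oas1a, Slfn8 and Trim30a were also called and are not shown. The runs below cover the bases from 200 to 41 before the gene start, 5′ to 3′ on the strand of the gene, with matches to the core in capitals. They lie at chr19:34640689-34640848 (plus strand) for Ifit1, chr19:34583329-34583488 (plus strand) for Ifit3, chr19:34607757-34607916 (plus strand) for Ifit3b, chr4:156200859-156201018 (minus strand) for Isg15 and chr8:71537513-71537672 (minus strand) for Bst2.
Ifit1: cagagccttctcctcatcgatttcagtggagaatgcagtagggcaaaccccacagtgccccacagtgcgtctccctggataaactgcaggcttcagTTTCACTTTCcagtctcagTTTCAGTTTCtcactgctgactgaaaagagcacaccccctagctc
Ifit3: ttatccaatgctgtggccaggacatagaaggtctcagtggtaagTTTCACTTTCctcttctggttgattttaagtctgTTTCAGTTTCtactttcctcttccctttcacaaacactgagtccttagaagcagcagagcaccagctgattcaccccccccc
Ifit3b: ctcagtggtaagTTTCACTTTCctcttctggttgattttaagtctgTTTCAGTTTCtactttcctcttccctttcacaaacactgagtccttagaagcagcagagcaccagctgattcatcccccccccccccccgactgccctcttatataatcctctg
Isg15: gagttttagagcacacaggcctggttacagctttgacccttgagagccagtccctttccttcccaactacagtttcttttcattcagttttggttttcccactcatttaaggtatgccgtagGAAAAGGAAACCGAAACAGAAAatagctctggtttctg
Bst2: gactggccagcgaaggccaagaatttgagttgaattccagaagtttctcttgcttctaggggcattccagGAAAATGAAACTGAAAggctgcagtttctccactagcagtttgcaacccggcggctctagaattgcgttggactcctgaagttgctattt
Isg15 held 3 overlapping matches in a single run, Bst2 held 2 overlapping matches, and each of the 3 IFIT genes held 2 separate matches on the opposite strand. Ifit3 and Ifit3b shared an unbroken run of 169 bases within the 250 bases searched, with both matches inside it. A match describes the letters in the window and is neither a bound site nor a cause of any value given here.

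Several members lie close together on the genome (GENCODE M21, GRCm38). All 4 IFIT genes lie on chromosome 19 and all 5 OAS genes on chromosome 5, while Sp100, Sp110 and Sp140 are close together on chromosome 1 and the 3 Schlafen genes lie on chromosome 11. Ifit3 and Ifit3b are near copies, with 51.2% of the 50-base windows of Ifit3 transcripts also present in Ifit3b, and Oas1a shared 57.6% of its windows with other genes, all with Oas1g. Sp140 (38.1%) and Sp110 (36%) also shared windows with other genes, and the next highest share was 14.6% for Slfn8. Levels of these near copies are uncertain where the authors' counting could have split reads among them. Of the 3 members on chromosome 7, the chromosome that carries Apoe, the nearest to Apoe was Trim30a at a distance of 84.7 Mb.

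Each library held 59265459 to 75932183 counts in total (median 63751715), and all 39 members passed the filter on low counts in every comparison. Levels are given as CPM (counts scaled to the size of the library), on 1 scale for all 21 mice set by TMM normalization. In every mouse more genes had 4 counts than had 3 or 5, with a median over mice of 1131 genes at 4 counts against 581 at 3 and 339 at 5, so a count need not stand for 1 sequenced fragment and counting error can be larger than the totals imply. The forebrain label was met by summed levels of 323 to 573 CPM for 4 forebrain markers, against 45.8 to 81.9 CPM for 5 cerebellar markers. Mouse Apoe, replaced in all groups, had 617 to 1164 counts in each mouse, and transcripts of human APOE and human tau were not analysed here. Per length of transcript, the highest members in parental mice were Ifi27 (mean 21.4 FPKM, a level scaled to transcript length and library size), Ifitm3 (15.4 FPKM) and Lgals3bp (8.16 FPKM). In PS19 mice these 3 genes again led, with mean levels of 28.7, 31.6 and 26.5 FPKM respectively. The lowest in parental mice were Oas3 (0.0364 FPKM in parental and 0.0744 FPKM in PS19 mice), Mx1 (0.0875 and 0.303 FPKM) and Zbp1 (0.0949 and 0.343 FPKM), with Oas2 (0.257 and 0.292 FPKM) below the latter pair in PS19 mice.

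In all 3 APOE lines the question was which members change when the tau transgene is present and the mice have reached paralysis. A call required a fold change of at least 2 and, in edgeR's quasi-likelihood test, a p under 0.05 after Benjamini-Hochberg adjustment over all genes tested. Log2 fold changes are given ± SE, from 3 parental and 4 PS19 mice in each line, and the tests measure the spread between mice. In PS/E2H against E2H mice 18 of 39 members were called, all of them higher, where 0.451% of the 20617 genes tested were called higher. The median log2 fold change of the members was 1.31, against -0.02 over all genes tested, and for 36 of 39 members every PS/E2H mouse was above every E2H mouse, as was the case for 6.67% of all genes. In PS/E4H against E4H mice 19 of 39 members were called, again all higher, against 2.4% of 20844 genes. Here the median log2 fold change was 1.06, against 0 over all genes, and the groups were separated for 25 of 39 members and 15% of all genes. In PS/E3H against E3H mice 1 member of 39 was called, Lgals3bp, against 1.2% of 21251 genes. The median log2 fold change in this line was 0.54, against 0 over all genes, and the groups were separated for 6 of 39 members and 10.5% of all genes. Without the fold limit, the adjusted p alone was passed by 19 members in the E2 line (0.669% of all genes, higher), 1 in the E3 line (3.35%) and 26 in the E4 line (8.62%). Members with a log2 fold change above 0 numbered 39 of 39 in the E2 line, 37 in the E3 line and 37 in the E4 line. Of all genes, 47.3%, 49.4% and 49.7% were above 0 in the same order.

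**Figure D1:**
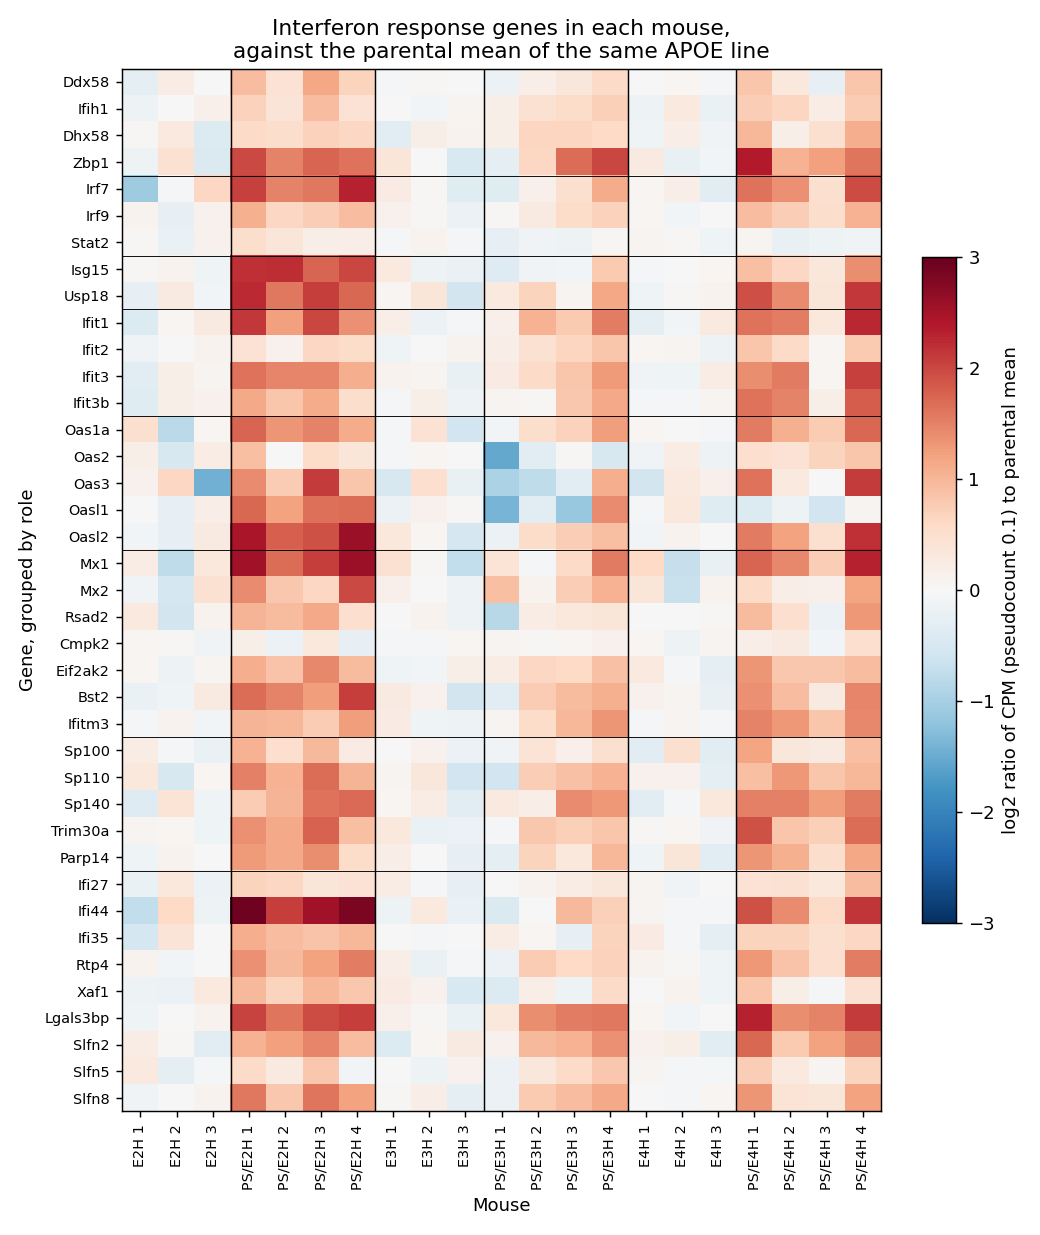
Heat map of the 39 members (rows, grouped by role between the thin lines) in the 21 mice (columns, by group), coloured by the log2 ratio of CPM, with 0.1 added, to the parental mean of the same APOE line. The PS/E2H columns are red throughout most rows, mouse 1 of PS/E3H and mouse 3 of PS/E4H are the palest PS19 columns, and Stat2 and Cmpk2 are pale in every group.

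Over all 21 mice, in a fit with the APOE line as a further term, 18 of 39 members were called higher, against 2.24% of 22863 genes, and 34 of 39 passed the adjusted p alone, against 11.4% of all genes in that direction. No member was called lower in any of these 4 fits. The 18 calls of the E2 line and the 19 of the E4 line shared 14 genes, which is 77.8% of the former and 73.7% of the latter, and 23 members were called in at least 1 line. Isg15, Oasl1, Eif2ak2 and Slfn8 were called in the E2 line and not in the E4 line. Irf7, Ifit3b, Oas1a, Sp110 and Sp140 were called in the E4 line and not in the E2 line. Whether the change differed between lines was tested separately and is given further on. Without E2H mouse 1 or mouse 3 the E2 line had 6 calls, without E2H mouse 2 it had 10, without PS/E2H mouse 1 it had 7 and without PS/E2H mouse 3 it had 9. The E4 line had 9 calls without E4H mouse 2. The 1 call in the E3 line became 0 without any single E3H mouse or without PS/E3H mouse 4, and 4 without PS/E3H mouse 1. Calls over all genes were not counted in the fits that left out a mouse. Whether a loss of calls was particular to the members therefore cannot be told.

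**Figure D2:**
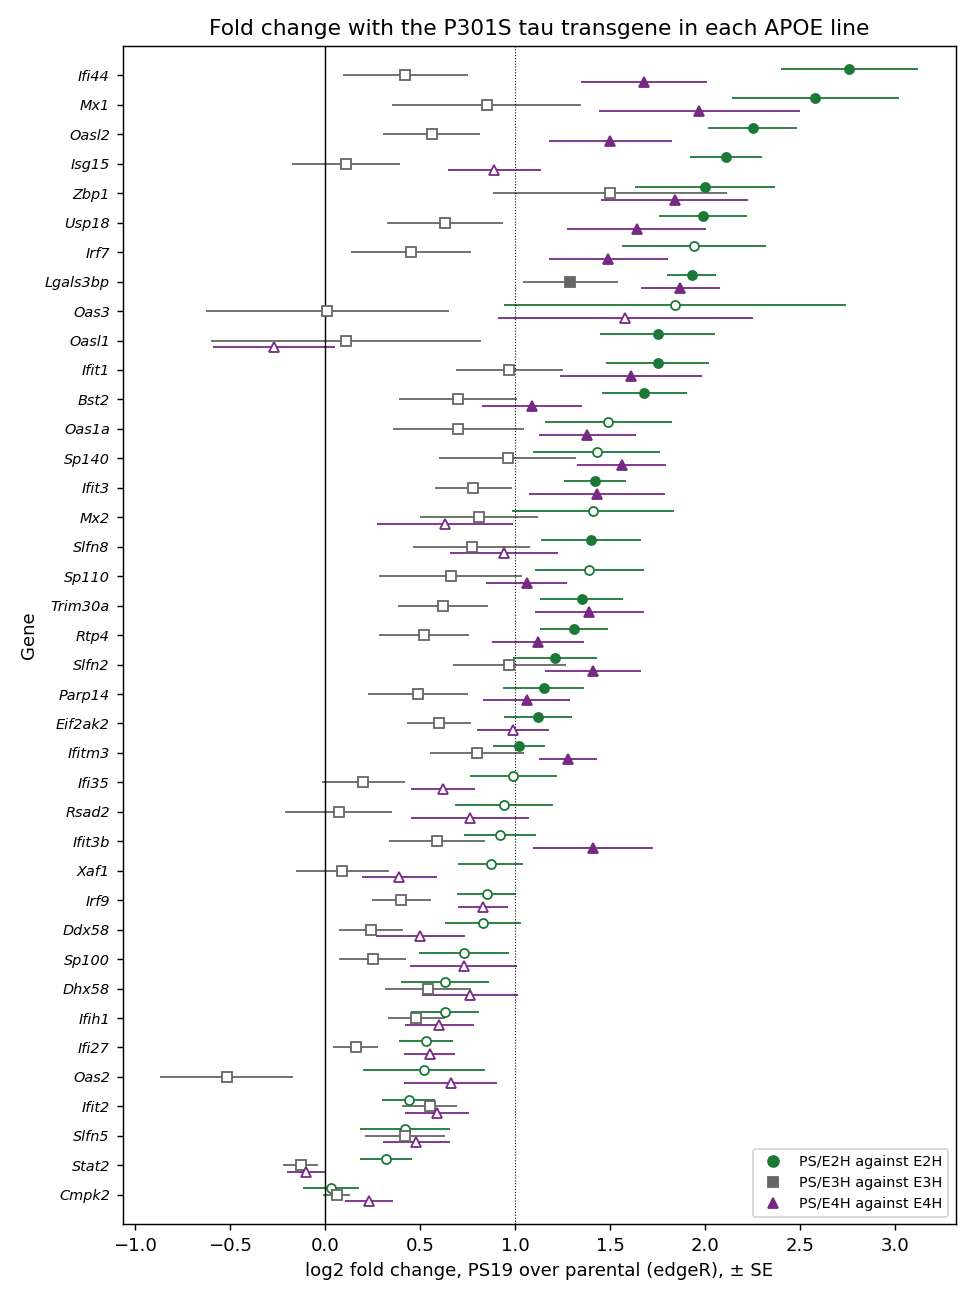
edgeR log2 fold change of PS19 over parental mice with its standard error (x axis) for each of 39 members (y axis, ordered by the E2 line), in the E2 line (circles), E3 line (squares) and E4 line (triangles), with filled symbols for called members and a dotted line at a fold change of 2. The squares lie left of the circles for most genes, and the 1 filled square is Lgals3bp at 1.29.

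Zbp1 was the 1 RNA sensor that was called. It encodes a sensor of Z-form nucleic acid that can start necroptosis. In the E2 line Zbp1 was at 0.292, 0.495 and 0.22 CPM in parental and at 1.61, 1.13, 1.36 and 1.25 CPM in PS19 mice, and the groups did not overlap. PS/E3H mice ran from the parental range to well above it, at 0.239, 0.526, 1.2 and 1.54 CPM against 0.42, 0.304 and 0.195 CPM in E3H mice. PS/E4H mice were at 2.96, 1.12, 1.3 and 1.71 CPM and E4H mice at 0.61, 0.411 and 0.457 CPM, again with no overlap. The edgeR log2 fold change of Zbp1 was 2.0 ± 0.37 in the E2 line (adjusted p = 0.047), 1.5 ± 0.62 in the E3 line (adjusted p = 0.191) and 1.84 ± 0.39 in the E4 line (adjusted p = 0.0117). The other 3 members of this role, Ddx58 (which encodes RIG-I), Ifih1 (MDA5) and Dhx58 (LGP2), detect or regulate the detection of double-stranded RNA in the cytosol. None of them was called, although Ifih1 passed the adjusted p in the E4 line (0.60, edgeR adjusted p = 0.048), with log2 fold changes of 0.63 to 0.83 in the E2 line, 0.24 to 0.54 in the E3 line and 0.50 to 0.76 in the E4 line. Over all 21 mice the 3 passed the adjusted p at log2 fold changes of 0.53, 0.58 and 0.65 (edgeR adjusted p = 0.00653, 0.000151 and 0.000824).

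Among the transcription factors, Irf7 and Irf9 passed the adjusted p over 21 mice and Stat2 did not. IRF7 drives a second wave of interferon production and is itself induced by interferon. Irf7 was at 1.17, 2.47 and 3.99 CPM in E2H and 10.9, 7.35, 7.84 and 13 CPM in PS/E2H mice. The E2H mice were spread widely, and the lowest PS/E2H mouse was still above the highest of them. In the E3 line Irf7 was at 4.01, 3.44 and 2.59 CPM against 2.6, 3.7, 4.72 and 7.4 CPM, with PS/E3H mouse 1 at the bottom of the parental range. E4H mice had 2.47, 2.73 and 1.86 CPM and PS/E4H mice 7.45, 6.24, 3.35 and 9.47 CPM, with no overlap. edgeR gave Irf7 a log2 fold change of 1.94 ± 0.38 in the E2 line (adjusted p = 0.0552), 0.45 ± 0.32 in the E3 line (adjusted p = 0.472) and 1.49 ± 0.31 in the E4 line (adjusted p = 0.0119). IRF9 is the DNA-binding part of ISGF3. Irf9 was at 11, 8.59 and 11.2 CPM in E2H and 21.7, 15.9, 17.3 and 19.5 CPM in PS/E2H mice, at 11.7, 11.1 and 9.51 against 11.1, 13, 15.9 and 17.5 CPM in E3H and PS/E3H mice and at 10.7, 9.65 and 10.4 against 19.7, 17.3, 14.8 and 21.3 CPM in E4H and PS/E4H mice. Its groups were separated in the E2 and E4 lines and overlapped in the E3 line, and its fold changes stayed under 2. For Irf9 the edgeR log2 fold change was 0.85 ± 0.16 in the E2 line (adjusted p = 0.0459), 0.40 ± 0.16 in the E3 line (adjusted p = 0.167) and 0.83 ± 0.13 in the E4 line (adjusted p = 0.0034). Stat2, whose protein is part of ISGF3, had log2 fold changes of 0.32 (edgeR adjusted p = 0.431), -0.13 (adjusted p = 0.489) and -0.10 (adjusted p = 0.559) in the E2, E3 and E4 lines.

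Isg15 and Usp18 were both called in the E2 line and in each fit there that left out a mouse. Over 21 mice Usp18 (1.41) was called in 21 of 21 such fits, while Isg15 (1.01) lay at the fold limit, was called in 13 of 21 and was not called by DESeq2. Ifitm3 (1.04), Sp110 (1.04) and Slfn8 (1.04) lay near the limit over 21 mice too and were called in 20, 17 and 17 of 21 fits. ISG15 is a ubiquitin-like protein that is joined to other proteins during the response, and USP18 removes it and also dampens signalling at the interferon receptor. Isg15 was at 1.68, 1.77 and 1.5 CPM in E2H mice, below every E3H mouse (3.54, 2.55 and 2.49 CPM) and every E4H mouse (2.41, 2.56 and 2.62 CPM). PS/E2H mice were at 7.92, 8.01, 5.78 and 6.96 CPM, above all parental mice. PS/E3H mice were at 2.18, 2.66, 2.68 and 4.96 CPM, of which only mouse 4 was above the E3H mice, and PS/E4H mice were at 4.85, 3.94, 3.22 and 6.8 CPM, all above the E4H mice. The edgeR log2 fold change of Isg15 was 2.11 ± 0.19 in the E2 line (adjusted p = 0.00189), 0.11 ± 0.28 in the E3 line (adjusted p = 0.874) and 0.89 ± 0.24 in the E4 line (adjusted p = 0.0349), where the change in the E4 line passed the adjusted p with a fold change under 2. Usp18 was at 1.33, 1.94 and 1.51 CPM in E2H and 7.83, 4.94, 7.02 and 5.5 CPM in PS/E2H mice. In the E3 line it was at 2.24, 2.77 and 1.43 against 2.67, 3.46, 2.28 and 4.95 CPM, with overlap. In the E4 line it was at 1.65, 1.87 and 1.96 against 7.23, 5.06, 2.36 and 8.32 CPM, separated, with PS/E4H mouse 3 nearest to the parental mice. edgeR gave Usp18 a log2 fold change of 1.99 ± 0.23 in the E2 line (adjusted p = 0.00593), 0.63 ± 0.31 in the E3 line (adjusted p = 0.271) and 1.64 ± 0.36 in the E4 line (adjusted p = 0.0147).

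**Figure D3:**
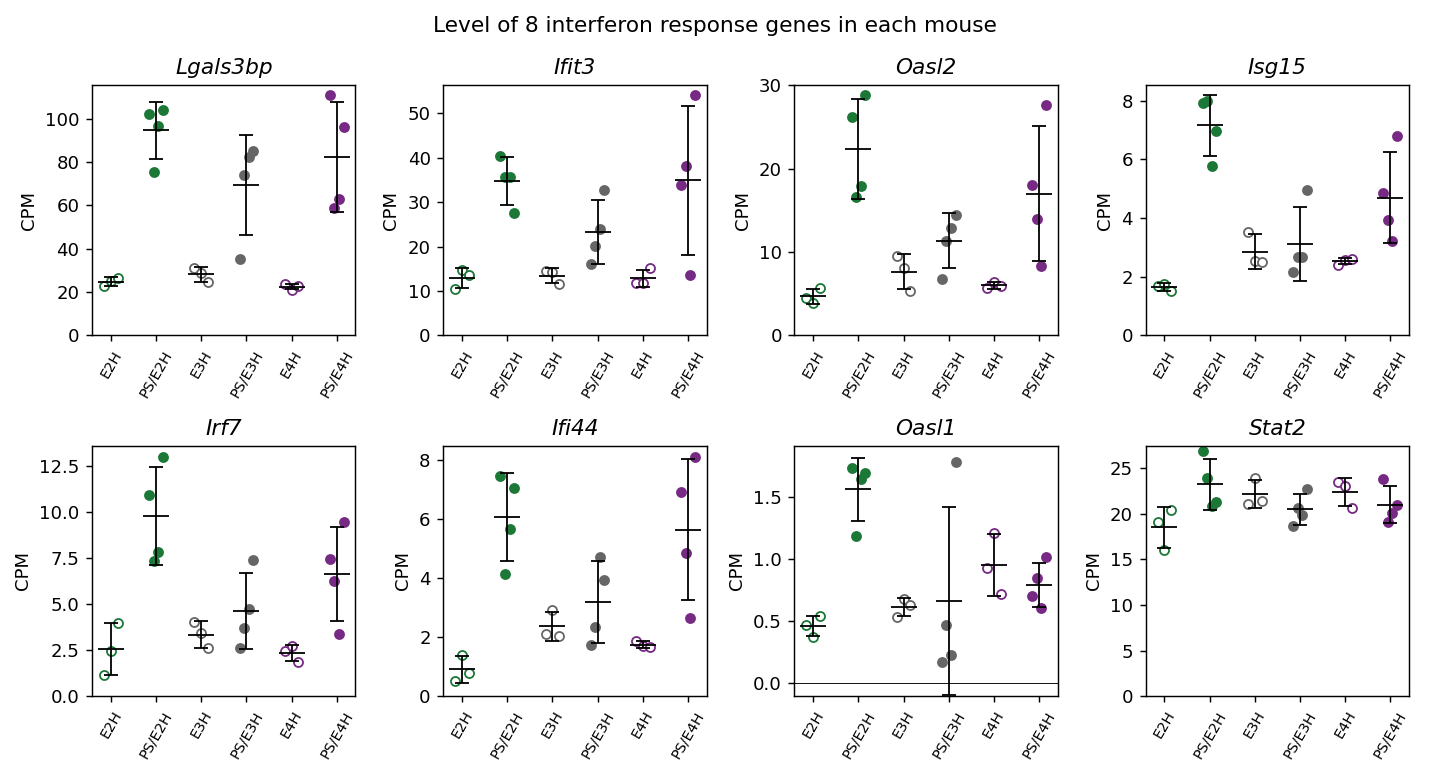
Level in CPM (y axis) of 8 members in each mouse (points, open for parental and filled for PS19 mice) of the 6 groups (x axis), with the mean and SD of each group as black bars. PS/E2H mice sit above all E2H mice in all 8 panels, PS/E3H mice overlap E3H mice in 6 of 8, and Oasl1 is above the parental range in the E2 line and overlaps it in the E4 line.

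All 4 IFIT genes passed the adjusted p over the 21 mice. IFIT proteins bind viral RNA, by its cap or its end, and block its translation. Ifit1 was at 2.07, 2.91 and 3.41 CPM in E2H, 4.68, 3.55 and 3.9 CPM in E3H and 2.75, 3.17 and 4.12 CPM in E4H mice. In PS19 mice Ifit1 was at 12.5, 6.66, 11.5 and 7.35 CPM in the E2 line, 4.48, 8.47, 7.06 and 12 CPM in the E3 line and 10.6, 9.89, 4.16 and 16.4 CPM in the E4 line, where mouse 1 of PS/E3H lay within its parental range and mouse 3 of PS/E4H only just above it. The edgeR log2 fold change of Ifit1 was 1.75 ± 0.27 in the E2 line (adjusted p = 0.0245), 0.97 ± 0.28 in the E3 line (adjusted p = 0.0727) and 1.61 ± 0.38 in the E4 line (adjusted p = 0.0181). Ifit3 was at 10.4, 14.7 and 13.6 CPM in E2H and 14.6, 14.2 and 11.6 CPM in E3H mice. In E4H mice Ifit3 was at 11.9, 11.7 and 15.1 CPM. Its PS19 values were 40.4, 35.6, 35.6 and 27.5 CPM in the E2 line, 16.1, 20.2, 24 and 32.8 CPM in the E3 line and 33.9, 38.2, 13.5 and 54.2 CPM in the E4 line. Every PS/E2H and PS/E3H mouse was above its parental mice, and in the E4 line mouse 3 fell within the parental range while the other PS/E4H mice were above every parental mouse. For Ifit3 edgeR gave a log2 fold change of 1.42 ± 0.16 in the E2 line (adjusted p = 0.00576), 0.78 ± 0.20 in the E3 line (adjusted p = 0.0531) and 1.43 ± 0.36 in the E4 line (adjusted p = 0.0246). Its near copy Ifit3b was at 7.31, 10.6 and 10.3 against 20.9, 16.7, 20.5 and 13.5 CPM in E2H and PS/E2H mice. In the E3 line it was at 7.5, 8.85 and 7.07 against 8.24, 8.06, 13.8 and 17.3 CPM, and in the E4 line at 6.26, 6.44 and 6.95 against 20.5, 18.6, 7.36 and 23.4 CPM, separated only in the E2 and E4 lines. Ifit3b had an edgeR log2 fold change of 0.92 ± 0.19 in the E2 line (adjusted p = 0.0665), 0.59 ± 0.25 in the E3 line (adjusted p = 0.208) and 1.41 ± 0.32 in the E4 line (adjusted p = 0.0154), and reads of the 2 genes may have been split between them. Ifit2 had log2 fold changes of 0.44, 0.55 and 0.59 in the E2, E3 and E4 lines, of which that in the E4 line passed the adjusted p.

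The OAS family was uneven. OAS enzymes make 2′-5′-linked oligoadenylate on meeting double-stranded RNA, which activates RNase L. Oasl2 was at 4.44, 3.94 and 5.67 CPM in E2H and 26.2, 16.6, 17.9 and 28.8 CPM in PS/E2H mice, far apart. In the E3 line it was at 9.53, 8.04 and 5.39 against 6.77, 11.3, 12.9 and 14.5 CPM, overlapping, and in the E4 line at 5.67, 6.42 and 5.9 against 18, 14, 8.34 and 27.6 CPM, separated. edgeR gave Oasl2 a log2 fold change of 2.25 ± 0.23 in the E2 line (adjusted p = 0.00309), 0.56 ± 0.25 in the E3 line (adjusted p = 0.237) and 1.5 ± 0.32 in the E4 line (adjusted p = 0.0134). Oas1a was at 1.62, 0.601 and 1.18 against 4.06, 2.97, 3.36 and 2.55 CPM in E2H and PS/E2H mice, 1.55, 2.18 and 1.04 against 1.49, 2.34, 2.65 and 3.91 CPM in E3H and PS/E3H mice and 1.43, 1.38 and 1.33 against 4.25, 2.98, 2.39 and 4.76 CPM in E4H and PS/E4H mice. It was separated in the E2 and E4 lines only, and its sequence is shared with Oas1g. Oas1a had an edgeR log2 fold change of 1.49 ± 0.34 in the E2 line (adjusted p = 0.0918), 0.70 ± 0.35 in the E3 line (adjusted p = 0.276) and 1.38 ± 0.26 in the E4 line (adjusted p = 0.00712). Oasl1, whose protein represses translation of Irf7 mRNA, was at 0.464, 0.371 and 0.537 CPM in E2H and 1.73, 1.18, 1.64 and 1.69 CPM in PS/E2H mice, 0.529, 0.672 and 0.622 against 0.168, 0.462, 0.223 and 1.78 CPM in E3H and PS/E3H mice and 0.922, 1.21 and 0.713 against 0.695, 0.84, 0.601 and 1.01 CPM in E4H and PS/E4H mice. PS/E2H mice were above all E2H mice, 3 of 4 PS/E3H mice were below all E3H mice with mouse 4 far above them, and PS/E4H mice overlapped E4H mice. The edgeR log2 fold change of Oasl1 was 1.75 ± 0.30 in the E2 line (adjusted p = 0.0364), 0.11 ± 0.71 in the E3 line (adjusted p = 0.958) and -0.27 ± 0.32 in the E4 line (adjusted p = 0.624). Oas2 and Oas3, both at low levels, passed the adjusted p neither in any line nor in the fit over 21 mice, with log2 fold changes there of 0.21 (edgeR adjusted p = 0.526) and 1.11 (adjusted p = 0.121).

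Of the 7 other antiviral effectors, Mx1, Eif2ak2, Bst2 and Ifitm3 were called in at least 1 line. Mx1 encodes a GTPase that traps viral nucleocapsids. Mx1 was at 0.345, 0.124 and 0.372 CPM in E2H, 0.759, 0.544 and 0.272 CPM in E3H and 0.506, 0.146 and 0.242 CPM in E4H mice. PS/E2H mice had 2.07, 1.11, 1.49 and 2.17 CPM, PS/E3H mice 0.73, 0.51, 0.83 and 1.75 CPM and PS/E4H mice 1.24, 0.989, 0.569 and 1.87 CPM, which was above the parental mice throughout the E2 and E4 lines and overlapped them in the E3 line. Its edgeR log2 fold change was 2.58 ± 0.44 in the E2 line (adjusted p = 0.0336), 0.85 ± 0.50 in the E3 line (adjusted p = 0.364) and 1.97 ± 0.53 in the E4 line (adjusted p = 0.0323), among the largest of the members and the least precise of those called. Eif2ak2 encodes PKR, a kinase that halts translation on double-stranded RNA. Eif2ak2 was at 4.14, 3.55 and 4.21 against 8.61, 7.31, 10.9 and 7.81 CPM in E2H and PS/E2H mice, at 5.03, 5.19 and 6.22 against 6.39, 8.51, 8.38 and 10.2 CPM in E3H and PS/E3H mice and at 5.44, 4.26 and 3.6 against 11.3, 7.88, 7.8 and 8.45 CPM in E4H and PS/E4H mice. It was separated in all 3 lines, and with Lgals3bp it was 1 of 2 members for which all 12 PS19 mice were above all 9 parental mice, a pattern shown by 1.38% of all genes. edgeR gave Eif2ak2 a log2 fold change of 1.12 ± 0.18 in the E2 line (adjusted p = 0.0286), 0.60 ± 0.17 in the E3 line (adjusted p = 0.069) and 0.99 ± 0.19 in the E4 line (adjusted p = 0.00789).

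Bst2 and Ifitm3 act at membranes. BST2 (tetherin) holds budding virus at the cell surface, and IFITM3 hinders the fusion of virus with endosomes. Bst2 was at 3.21, 3.36 and 4.5 CPM in E2H and 12, 10.6, 8.97 and 15.8 CPM in PS/E2H mice, 5.64, 5.11 and 3.13 against 3.66, 7.85, 8.96 and 9.72 CPM in E3H and PS/E3H mice and 4.7, 4.54 and 3.66 against 11.2, 8.24, 5.17 and 12.1 CPM in E4H and PS/E4H mice. PS/E3H mouse 1 was the only PS19 mouse within its parental range. For Bst2 the edgeR log2 fold change was 1.68 ± 0.22 in the E2 line (adjusted p = 0.0114), 0.70 ± 0.31 in the E3 line (adjusted p = 0.231) and 1.09 ± 0.26 in the E4 line (adjusted p = 0.0216). Ifitm3 was at 11.4, 12.5 and 10.9 against 23.8, 23.1, 19.8 and 27.6 CPM in the E2 line, 14.3, 10.9 and 10.8 against 12.8, 17.5, 23.9 and 30.1 CPM in the E3 line and 9.97, 10.9 and 9.95 against 28.8, 25.3, 18.3 and 28.2 CPM in the E4 line, parental before PS19. Again only PS/E3H mouse 1 overlapped its parental mice. Ifitm3 had an edgeR log2 fold change of 1.02 ± 0.14 in the E2 line (adjusted p = 0.0115), 0.80 ± 0.25 in the E3 line (adjusted p = 0.088) and 1.28 ± 0.15 in the E4 line (adjusted p = 0.000785). Mx2 and Rsad2, which encodes viperin, were called in no line and passed the adjusted p over 21 mice at log2 fold changes of 0.95 (edgeR adjusted p = 0.00377) and 0.59 (adjusted p = 0.028). Cmpk2, a nucleotide kinase gene next to Rsad2, had a log2 fold change of 0.11 there (adjusted p = 0.297).

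The 5 nuclear and transcriptional regulators all passed the adjusted p over 21 mice. TRIM30a is a regulator of NF-kappaB signalling, and PARP14 is an ADP-ribosyltransferase. Trim30a was at 3.1, 3.02 and 2.64 against 7.75, 6.53, 10.2 and 5.56 CPM in E2H and PS/E2H mice, 4.68, 3.23 and 3.28 against 3.59, 6.56, 6.18 and 6.73 CPM in E3H and PS/E3H mice and 3.69, 3.76 and 3.34 against 13.7, 6.49, 5.98 and 11.7 CPM in E4H and PS/E4H mice. Mouse 1 of PS/E3H alone overlapped its parental mice. The edgeR log2 fold change of Trim30a was 1.35 ± 0.22 in the E2 line (adjusted p = 0.0291), 0.62 ± 0.24 in the E3 line (adjusted p = 0.163) and 1.39 ± 0.29 in the E4 line (adjusted p = 0.0108). Parp14 was at 2.93, 3.43 and 3.25 against 7.89, 7.18, 8.62 and 4.77 CPM in the E2 line, 5.53, 4.79 and 4.01 against 3.92, 7.63, 6.01 and 9.58 CPM in the E3 line and 3.78, 5.34 and 3.24 against 10.5, 8.78, 5.95 and 9.32 CPM in the E4 line, parental before PS19. It was separated in the E2 and E4 lines. edgeR gave Parp14 a log2 fold change of 1.15 ± 0.21 in the E2 line (adjusted p = 0.0475), 0.49 ± 0.26 in the E3 line (adjusted p = 0.316) and 1.06 ± 0.23 in the E4 line (adjusted p = 0.0127). SP100, SP110 and SP140 are nuclear body proteins. Sp140 was at 0.663, 1.22 and 0.812 against 1.6, 1.93, 2.99 and 3.14 CPM in the E2 line, 1.21, 1.38 and 0.895 against 1.45, 1.35, 3.28 and 3.02 CPM in the E3 line and 0.684, 0.849 and 1.12 against 2.72, 2.72, 2.26 and 2.8 CPM in the E4 line. PS/E3H mice split into a pair close to the highest E3H mouse and a pair well above it, and the other lines were separated. For Sp140 the edgeR log2 fold change was 1.43 ± 0.34 in the E2 line (adjusted p = 0.105), 0.96 ± 0.36 in the E3 line (adjusted p = 0.152) and 1.56 ± 0.23 in the E4 line (adjusted p = 0.0026). Sp110 was at 1.49, 0.813 and 1.24 against 3.54, 2.53, 3.96 and 2.48 CPM in the E2 line, 1.91, 2.31 and 1.18 against 1.18, 3.07, 3.41 and 3.81 CPM in the E3 line and 1.62, 1.63 and 1.18 against 2.83, 3.81, 2.71 and 3.06 CPM in the E4 line. It was separated in the E2 and E4 lines. Sp110 had an edgeR log2 fold change of 1.39 ± 0.29 in the E2 line (adjusted p = 0.0665), 0.66 ± 0.38 in the E3 line (adjusted p = 0.351) and 1.06 ± 0.21 in the E4 line (adjusted p = 0.00945). Sp100 was called in no line, with log2 fold changes of 0.73, 0.25 and 0.73 in the E2, E3 and E4 lines.

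Lgals3bp was the member with the smallest adjusted p over 21 mice and the only one called in all 3 lines. It encodes a secreted glycoprotein that binds galectins. Lgals3bp was at 22.7, 24.9 and 26.7 CPM in E2H and 102, 75.5, 96.6 and 104 CPM in PS/E2H mice. In the E3 line it was at 31, 28.7 and 24.6 against 35.3, 74.2, 82.2 and 85 CPM, and in the E4 line at 23.5, 21.1 and 22.7 against 111, 58.9, 62.9 and 96 CPM. All PS19 mice exceeded all parental mice, with mouse 1 of PS/E3H lowest by a wide margin. The edgeR log2 fold change of Lgals3bp was 1.93 ± 0.13 in the E2 line (adjusted p = 0.000764), 1.29 ± 0.25 in the E3 line (adjusted p = 0.0196) and 1.87 ± 0.21 in the E4 line (adjusted p = 0.000549), and 1.70 ± 0.15 over 21 mice (adjusted p = 4.15e-08). Leaving out a single mouse of the E3 line, the call there was kept in 3 of 7 fits.

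Ifi44 had the largest fold change of all members in the E2 line. IFI44 is induced by interferon, and its own function is less well known. Ifi44 was at 0.504, 1.41 and 0.798 CPM in E2H mice, below every E3H (2.12, 2.91 and 2.05 CPM) and E4H mouse (1.87, 1.7 and 1.68 CPM). PS/E2H mice were at 7.44, 4.15, 5.65 and 7.06 CPM, PS/E3H mice at 1.73, 2.33, 4.73 and 3.93 CPM and PS/E4H mice at 6.9, 4.86, 2.66 and 8.1 CPM, separated from their parental mice in the E2 and E4 lines. edgeR gave Ifi44 a log2 fold change of 2.76 ± 0.36 in the E2 line (adjusted p = 0.0103), 0.42 ± 0.33 in the E3 line (adjusted p = 0.524) and 1.68 ± 0.33 in the E4 line (adjusted p = 0.00907). Rtp4, whose protein acts as a chaperone of G protein-coupled receptors, was at 3.09, 2.72 and 2.85 against 7.64, 5.79, 6.82 and 8.53 CPM in the E2 line, 3.55, 2.67 and 3.02 against 2.71, 5.3, 4.72 and 5.06 CPM in the E3 line and 3.17, 3.03 and 2.69 against 7.45, 5.4, 4.22 and 8.8 CPM in the E4 line, parental before PS19. PS/E3H mouse 1 alone lay within its parental range. For Rtp4 the edgeR log2 fold change was 1.31 ± 0.18 in the E2 line (adjusted p = 0.0134), 0.52 ± 0.24 in the E3 line (adjusted p = 0.242) and 1.12 ± 0.24 in the E4 line (adjusted p = 0.0133). The Schlafen genes Slfn2 and Slfn8 are restrictors of lymphocyte and viral growth. Slfn2 was at 2.3, 2.03 and 1.57 against 4.13, 4.75, 5.62 and 3.81 CPM in the E2 line, 1.4, 1.99 and 2.33 against 2.11, 3.82, 4.02 and 5.1 CPM in the E3 line and 2.04, 2.1 and 1.44 against 6.42, 3.28, 4.44 and 5.66 CPM in the E4 line. Slfn8 was at 0.995, 1.06 and 1.17 against 3.43, 1.95, 3.46 and 2.6 CPM, 1.71, 1.94 and 1.34 against 1.47, 2.96, 3.27 and 3.75 CPM and 1.46, 1.43 and 1.53 against 3.86, 1.99, 1.93 and 3.56 CPM in the same order. Both were separated in the E2 and E4 lines and overlapped in the E3 line through PS/E3H mouse 1. Slfn2 had an edgeR log2 fold change of 1.21 ± 0.22 in the E2 line (adjusted p = 0.0424), 0.97 ± 0.30 in the E3 line (adjusted p = 0.0888) and 1.41 ± 0.26 in the E4 line (adjusted p = 0.00634). Slfn8 had one of 1.40 ± 0.27 in the E2 line (adjusted p = 0.0481), 0.77 ± 0.31 in the E3 line (adjusted p = 0.174) and 0.94 ± 0.28 in the E4 line (adjusted p = 0.0503), so that in the E4 line it missed the adjusted p by little. Ifi27, Ifi35, Xaf1 and Slfn5 were called in no line, with log2 fold changes of 0.42 to 0.99 in the E2 line, 0.09 to 0.42 in the E3 line and 0.39 to 0.62 in the E4 line, and all 4 passed the adjusted p over 21 mice at 0.42 to 0.61.

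The spread among PS19 mice was not even. Taking for each mouse the median over the 39 members of the log2 ratio to its parental mean, PS/E2H mice were at 1.27, 0.98, 1.40 and 0.99. PS/E3H mice were at -0.09, 0.42, 0.60 and 0.91, and PS/E4H mice at 1.33, 0.79, 0.37 and 1.30, while the parental mice lay between -0.18 and 0.07. The 4 PS/E2H mice were thus within a narrow range. PS/E3H mice ran from within the parental range to close to the level of PS/E2H mice. PS/E4H mice ran from 0.37, above the parental range, to the level of PS/E2H mice. Within PS/E3H, mouse 1 was the lowest of its group for 32 of 39 members and mouse 4 the highest for 34. Within PS/E4H, mouse 3 was the lowest for 33 of 39 members and mouse 4 the highest for 23. The median coefficient of variation of the members was 33% in PS/E3H and 31% in PS/E4H mice, against 15.9% and 15.4% over all genes in the same mice, and was 19.6% in PS/E2H mice, against 17.4% over all genes.

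Microglia markers were also higher in PS19 mice. Of 12 microglia markers, 10 passed the adjusted p over 21 mice, all higher, with log2 fold changes from 0.43 (Tmem119) to 1.84 (C1qa), and P2ry12 (-0.06, edgeR adjusted p = 0.768) and Sall1 (0.18, adjusted p = 0.0523) did not. The summed level of the 12 markers was 547 to 753 CPM in the 9 parental mice. It was 923 to 1300 CPM (median 1210) in PS/E2H, 939 to 1450 CPM (median 1270) in PS/E3H and 1330 to 1700 CPM (median 1460) in PS/E4H mice. The microglia median was thus lowest in PS/E2H mice, although the ranges of the 3 groups touch or overlap except between PS/E2H and PS/E4H. The members' median log2 fold change of 1.31 in the E2 line is relative to E2H mice, which is a different measure from a level. Compared directly, PS/E4H against PS/E2H mice had a median log2 difference of the members of -0.03. PS/E2H mouse 4, with 923 CPM of microglia markers, had a member median of 0.99. PS/E3H mouse 1, with 939 CPM and a member median of -0.09, was the lowest of its group in both, while PS/E4H mouse 3, the lowest of its group for the members, had 1400 CPM. Astrocyte markers rose too, with 6 of 6 past the adjusted p and sums of 2590 to 3180 CPM in parental and 4080 to 6070 CPM in PS19 mice. Oligodendrocyte markers passed higher for 4 of 6 over 21 mice, with 0 of 6 in the E2 line by edgeR (0 also at an unadjusted p under 0.05), 6 of 6 in the E3 line and 5 of 6 in the E4 line. Of 6 neuron markers 3 passed lower (Snap25, Syt1 and Slc17a7) and 1 higher (Gad1) over 21 mice, and 3 passed lower and 1 higher in the E4 line. Of 6 endothelial markers 2 passed higher and 1 lower, with sums of 128 to 181 CPM in parental and 133 to 189 CPM in PS19 mice. Of 6 T cell markers 0 passed over 21 mice by edgeR, with 1 at an unadjusted p under 0.05, and 1 was called higher in the E4 line, Cd3g (edgeR adjusted p = 0.0381), with 0 to 4 counts in E4H and 11 to 35 counts in PS/E4H mice. The T cell marker sums were 8.80 to 12.4 CPM in parental and 7.32 to 12.9 CPM in PS19 mice. No microglia or endothelial marker was at 0 throughout a group, and 1 T cell marker was at 0 in every mouse of E3H, E4H and PS/E2H. Monocyte marker sums were 0.883 to 8.57 CPM in parental and 1.04 to 25.2 CPM in PS19 mice, with 1 of 5 past the adjusted p. PS/E3H mouse 4 (25.2 CPM) and PS/E4H mouse 1 (15.5 CPM) had the highest sums, and the other PS19 mice were at 1.04 to 9.19 CPM. The part of these cell types in the members' rise was not tested, and in bulk RNA more cells of a type and more RNA per cell cannot be told apart.

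**Figure D4:**
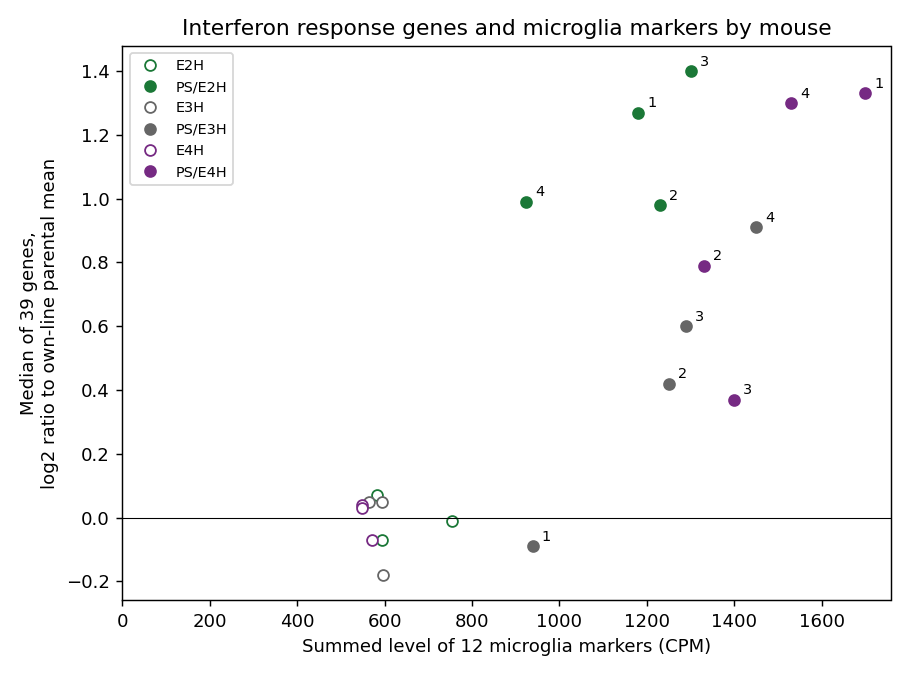
For each of the 21 mice, the median log2 ratio of the 39 members to the parental mean of its line (y axis) against the summed CPM of 12 microglia markers (x axis), with open points for parental and filled points for PS19 mice, numbered by replicate. PS/E2H mice lie at 0.98 to 1.40 with 923 to 1300 CPM of microglia markers, and PS/E4H mouse 3 lies at 0.37 with 1400 CPM. The y axis is relative to parental mice of the same line, and the x axis is not.

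The interferons themselves were barely present in the counts. Of 17 type I interferon genes, 12 were listed at 0 counts in all 21 mice. The other 5 (Ifnb1, Ifna2, Ifna16, Ifne and Ifnk) had a count in 1 to 3 mice each, of at most 11 counts, and none passed the filter for testing. Of 7 genes for interferon receptors and their kinases, Ifnar2 (log2 fold change 0.27 over 21 mice, edgeR adjusted p = 0.0152) and Ifngr1 (0.51, adjusted p = 4.19e-06) passed, both higher and under 2-fold. Ifnar1, the other subunit of the type I receptor, was at -0.01 (adjusted p = 0.877). Transcription factors outside the members that passed, all higher, included Irf8 (1.21, adjusted p = 1.27e-06), which microglia need, Stat3 (0.52, edgeR adjusted p = 4.12e-06) and Irf5 (0.80, adjusted p = 2.75e-05). Of 8 genes for sensing nucleic acids 4 passed, all higher, with Samhd1 (0.30, adjusted p = 0.00147), Mavs (0.36, adjusted p = 0.0036), Tmem173 (0.50, adjusted p = 0.0168), which encodes STING, and Ikbke (0.72, adjusted p = 0.0359). Of 5 negative regulators, Ptpn6 (1.39, adjusted p = 2.5e-07) and Socs3 (0.84, adjusted p = 0.000891) passed. Of 28 further genes known to be induced by interferon 16 passed, all higher, against 11.4% of all genes, with a median log2 fold change of 0.37 over the 28. The 4 with the smallest adjusted p were Epsti1 (1.25, adjusted p = 1.24e-06), Parp9 (0.97, adjusted p = 2.65e-05), Tor3a (0.63, adjusted p = 4.58e-05) and Phf11b (1.62, adjusted p = 0.000209).

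Between parental mice of different APOE lines the question was whether APOE genotype alone moved the members. In E2H against E3H mice 0 of 39 members were called, where 0.144% of 20797 genes were called in either direction. At an unadjusted p under 0.05, edgeR gave 10 of 39 members, all lower in E2H, against 14.1% of all genes in either direction. DESeq2 called 76 genes in either direction, of which 1 was a member, Ifi44 (log2 difference -1.40 ± 0.40, adjusted p = 0.0237). The median log2 difference of the members was -0.34, against -0.01 over all genes, and 32 of 39 members were lower in E2H mice. Of all genes, 48.6% were higher in E2H mice. The largest of the member differences with an unadjusted p under 0.05 were Ifi44 (-1.40 ± 0.37, edgeR adjusted p = 0.229), Isg15 (-0.80 ± 0.22, adjusted p = 0.232) and Sp100 (-0.73 ± 0.19, adjusted p = 0.224). In each case every E2H mouse was below every E3H mouse, and the share of all genes separated in this way was not counted. Summed oligodendrocyte markers were 6340 to 7030 CPM in E2H and 4740 to 5240 CPM in E3H mice, with no overlap, and the part of this difference in that of the members was not tested. In E4H against E3H mice 0 members were called by edgeR and by DESeq2, against 0.1% of genes, with 4 at an unadjusted p under 0.05 (6.67% of genes) and a median of -0.17. In E4H against E2H mice both tools again called 0 members, against 0.187% of genes by edgeR, with 6 at an unadjusted p under 0.05 (12.4% of genes) and a median of 0.21. These 3 comparisons share groups and are not independent.

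Between PS19 mice of different APOE lines no member was called by edgeR. PS19 mice were killed at paralysis, which PS/E3H mice reached later than PS/E2H and PS/E4H mice in the survival data of the study. The PS/E2H and PS/E4H groups held both sexes, and the PS/E3H group was all male. APOE line therefore cannot be told apart from age at death and sex in these comparisons, or in the interactions of tau and APOE line. In PS/E2H against PS/E3H mice 0 of 39 members were called, against 0.108% of 20324 genes. At an unadjusted p under 0.05 edgeR gave 13 of 39 members, all higher in PS/E2H, against 11.7% of all genes in either direction. DESeq2 called 67 genes in either direction, of which 2 were members, Isg15 (1.19 ± 0.25, adjusted p = 0.000819) and Irf7 (1.08 ± 0.28, adjusted p = 0.0238). The median log2 difference was 0.37, against 0 over all genes, and 35 of 39 members were higher in PS/E2H, as were 49.7% of all genes. Isg15 had the smallest edgeR p, with a log2 difference of 1.20 ± 0.25 (adjusted p = 0.222) and every PS/E2H mouse above every PS/E3H mouse. Ifi27 (0.48 ± 0.10, adjusted p = 0.232) and Oasl2 (0.97 ± 0.24, adjusted p = 0.354) were also separated, as was Rtp4 (0.69). The share of all genes separated in this way was not counted. Without PS/E3H mouse 4, Isg15 was called by edgeR (1.51 ± 0.18, adjusted p = 0.0127), as it was with all 21 mice in one fit (1.20 ± 0.24, adjusted p = 0.028). In PS/E4H against PS/E3H mice 0 members were called by either tool, against 0.0197% of genes by edgeR, with 2 at an unadjusted p under 0.05 (6.51% of genes) and a median of 0.34. In PS/E4H against PS/E2H mice 0 members were called by either tool, against 0.109% of genes by edgeR, with 2 at an unadjusted p under 0.05 (12.3% of genes), which were Oasl1 (-0.98 ± 0.27, edgeR adjusted p = 0.282) and Isg15 (-0.61 ± 0.22, adjusted p = 0.352).

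The interaction of tau and APOE line asked whether the change with tau differed between lines, and here edgeR called 0 members and 0 of all genes at an adjusted p under 0.05, in all 3 pairs of lines. For the E2 against the E3 line, 17 of 39 members had an unadjusted p under 0.05, all with the larger change in the E2 line, against 5.72% of 22133 genes in either direction. The median difference of log2 fold changes was 0.64, against -0.01 over all genes. Isg15 had the smallest p, with a difference of 2.0 ± 0.35 (95% interval 1.25 to 2.76, edgeR adjusted p = 0.308). Ifi44 (2.34 ± 0.52, adjusted p = 0.843), Oasl2 (1.69 ± 0.37, adjusted p = 0.843) and Usp18 (1.36 ± 0.40, adjusted p = 0.843) followed. DESeq2 called 11 genes in this pair of lines, in either direction, and 3 of them were members. These were Isg15 (DESeq2 adjusted p = 0.00057), Oasl2 (adjusted p = 0.0181) and Ifi44 (adjusted p = 0.019). Without PS/E3H mouse 4 edgeR called Isg15 (2.31 ± 0.27, adjusted p = 0.0103). For Isg15 E2H mice were below all E3H mice and PS/E2H mice above all PS/E3H mice, while for Ifi44 E2H mice were below all E3H mice and PS/E2H mice overlapped PS/E3H mice. For the E4 against the E3 line 3 members had an unadjusted p under 0.05 (3.81% of genes), with a median difference of 0.48. None of the 8 genes called by DESeq2 was a member. For the E4 against the E2 line 4 members did (10.1% of genes), with a median difference of -0.15. Oasl1 (-2.03 ± 0.41, 95% interval -2.89 to -1.17, edgeR adjusted p = 0.199) and Isg15 (-1.23 ± 0.31, adjusted p = 0.293) were the leading members of that pair. DESeq2 called both (adjusted p = 0.00594 and 0.0396), among 115 genes it called in either direction. A p above the threshold does not show that the lines responded alike, and the intervals of many members spanned more than a 2-fold difference.

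**Figure D5:**
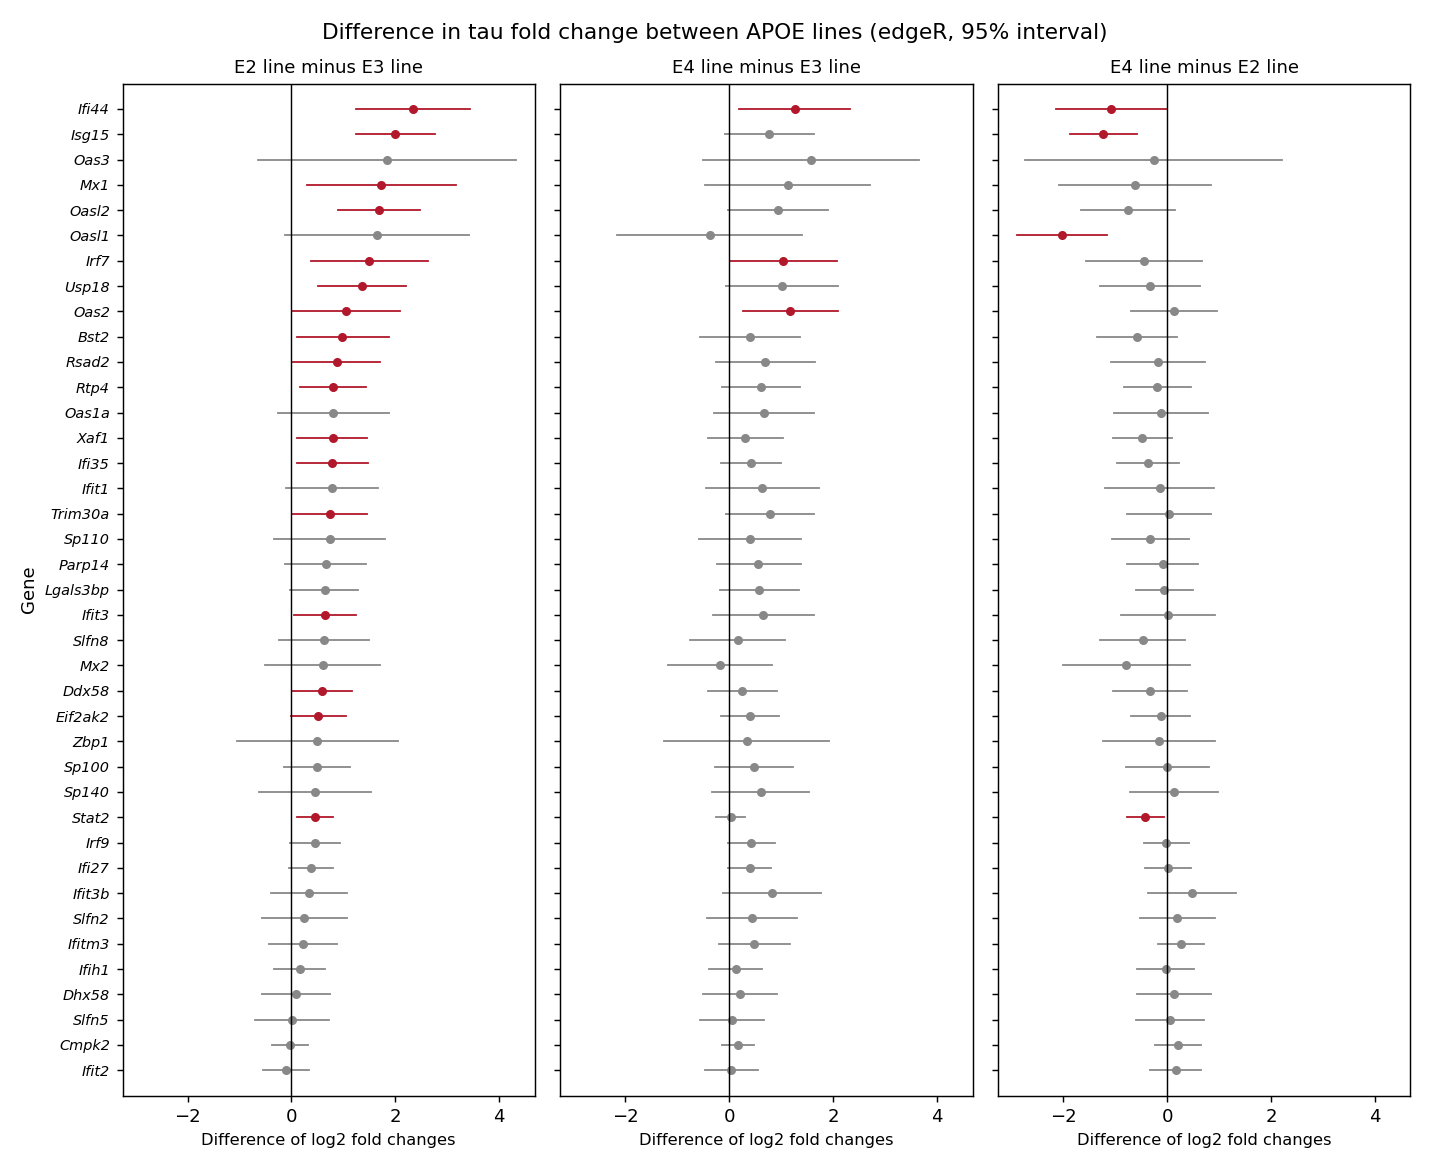
Difference between APOE lines in the log2 fold change with tau (x axis, point with its 95% interval from edgeR) for the 39 members (y axis, ordered by the first panel), with red for an unadjusted p under 0.05. In the first panel 17 members are red and all of them lie to the right of 0, and no member in any panel had an adjusted p under 0.05.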

How the data were processed

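Forebrain poly(A) RNA of 21 mice was sequenced as paired reads. The authors trimmed reads with Cutadapt, aligned them with HISAT2 to the Ensembl mouse genome (GRCm38.p5 in the submitters' processing notes) and assembled and quantified transcripts with StringTie; tool versions are not given in the sources used here. The deposited tables hold counts per gene and FPKM per gene, and how the counts were derived from the assembly is not given in the sources used here. Counts of 4 were more frequent than counts of 3 or 5 in every mouse, so that counting error may exceed what the counts imply.

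Counts were tested with edgeR 4.0.16 (R 4.3.3) by the quasi-likelihood test after TMM normalization, with filterByExpr (minimum count 10, minimum total 15) and Benjamini-Hochberg adjustment over all genes tested. Only the groups compared entered each fit, except the fit over 21 mice with APOE line as a term. Alternatives were DESeq2 1.42.0, other scaling, no filter, limma 3.58.1 on log2(FPKM + 0.1) or log2(FPKM + 1), a replicate block, all mice in one fit and leaving out each mouse. The edgeR steps were tested on simulated data. Members and lists were chosen with earlier results of these data known. Values of every mouse are given for members called in a comparison of PS19 with parental mice and for the 12 with the smallest adjusted p over 21 mice. Positions come from GENCODE M21 (GRCm38) and promoters from RefSeq (GRCm38.p6). The 27 pairs of libraries within groups differed by more than sampling noise, and no library was left out. The chi-square per gene, a measure of this difference, ran from 17.9 to 73.1 over the pairs. It was 70.8 and 62.8 between E2H mouse 2 and the other E2H mice, and 18.4 between those. An item of the pathway lists is not reported here.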

Additional observations from a re-analysis of the deposited data

Results flagged for a closer look

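Among the 117 sets of 4 PS19 mice examined (39 members in 3 groups), 6 held a mouse apart from the other 3 by Dixon's criterion, where chance gives about 1 in 20. PS/E3H mouse 1 was low for Dhx58 (1.88 CPM, others 2.55 to 2.63) and Rsad2 (1.45 CPM, others 3.11 to 3.45), and PS/E3H mouse 4 was high for Oas3 (1.13 CPM, others 0.197 to 0.351). PS/E4H mouse 3 was low for Sp140 (2.26 CPM, others 2.72 to 2.80) and Ifi35 (4.35 CPM, others 4.82 to 4.91). PS/E2H mouse 2 was low for Oasl1 (1.18 CPM, others 1.64 to 1.73).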

How the results depend on the processing

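No member was called lower in PS19 mice under any alternative run for the 3 lines or the fit over 21 mice. In the E2 line the 18 calls became 10 with no filter on low counts, 11 with limma on log2(FPKM + 0.1) and 7 with limma on log2(FPKM + 1), while DESeq2 gave 23. Of all genes, these fits called 55, 69, 33 and 270 in the same order, in either direction. The 1 call in the E3 line became 0 with either limma fit. At the adjusted p alone, DESeq2 passed 7 members in the E3 line and edgeR with all 21 mice in one fit passed 3. With the fold limit these 2 fits called 403 and 282 of all genes, in either direction. In the E4 line the 19 calls became 2 with limma on log2(FPKM + 1), and over 21 mice the 18 calls became 2. Of all genes, that fit called 132 in the E4 line and 82 over 21 mice, in either direction. At the adjusted p alone, 13 members passed it in the E4 line and 34 over 21 mice. The main edgeR fit over 21 mice also gave 34 with no fold limit. DESeq2 gave 1 call between parental APOE groups, 2 between PS19 APOE groups and 5 over the interactions, where edgeR gave 0, and with all 21 mice in one fit edgeR gave 1 between PS19 APOE groups. The cause of these changes was not tested. Calls over all genes were not counted in the fits below that left out 1 mouse. Leaving out 1 mouse at a time gave 6 to 15 calls in the E2 line, 0 to 4 in the E3 line, 9 to 22 in the E4 line, 16 to 21 over 21 mice, 0 to 0 between parental APOE groups, 0 to 1 between PS19 APOE groups and 0 to 1 over the interactions. The median interaction of E4 against E2 (-0.15) ran from -0.29 to 0.03, above 0 without PS/E4H mouse 3, and Stat2 over 21 mice (0.04) from -0.01 to 0.06, below 0 without E2H mouse 2, neither of them called.

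Same-numbered mice did not clearly deviate together (correlations of -0.12 to 0.09), so no pairing by number was evident. With the replicate number as a block the E2 line had 16 calls, the E3 line 0, the E4 line 13 and the fit over 21 mice 14. Of all genes, these block fits called 150, 157, 423 and 487 in the same order, in either direction. Genes with few counts, such as Oas3, Mx1 and Zbp1, had the least precise values.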
